A study of Mus musculus with 9 samples.

Results

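The genes described here are the numbered Klhl, Kbtbd and Asb genes of the mouse, which encode substrate adaptors of cullin-RING ubiquitin ligases. They were chosen by symbol, as Klhl, Kbtbd or Asb followed by a number and nothing else, which gave 64 of the 23238 gene symbols counted: 37 Klhl, 9 Kbtbd and 18 Asb genes. RNA was sequenced from the gastrocnemius, a calf muscle, of female C57BL/6 mice aged 4 weeks, in 3 groups of 3 libraries. Mice of the RP group were injected 4 times with cisplatin, a platinum drug used against tumours, at 3 mg/kg on alternate days, and took 100 mg/kg of RP by mouth for 9 days. RP is the submitters' name for this agent, and the series title names an extract of Paeonia lactiflora, the peony. The Cisplatin group had the same injections with water by mouth, and the Normal group had saline injections with water by mouth. RP without cisplatin was not analysed here, so every comparison that involves RP is one within cisplatin-treated mice or against mice that had neither agent. The study asked how muscle wasting under cisplatin, and its treatment with the extract, relate to ubiquitin ligases of muscle.

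An E3 ubiquitin ligase brings a ubiquitin-charged enzyme to a substrate, and the cullin-RING ligases do so in modules. A cullin forms the scaffold, a small RING subunit binds the charged enzyme, and an exchangeable adaptor chooses the substrate. Most KLHL and KBTBD proteins bind CUL3 through a BTB domain and grip the substrate with kelch repeats, whereas ASB proteins carry ankyrin repeats and a SOCS box that binds elongin B, elongin C and CUL5. Attachment of NEDD8 to the cullin switches the ligase on, and the COP9 signalosome takes it off again. Striated muscle is rich in such adaptors: mutations of KLHL40, KLHL41 and KBTBD13 cause nemaline myopathy in people, and ASB2 targets filamins.

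Each library held 7.38% to 12.8% of its counts in Rn45s, a ribosomal RNA precursor, and totals were 9178613 to 9826089 counts in RP, 8352397 to 10678342 in Cisplatin and 8196030 to 8677236 in Normal. Libraries are named by group and replicate number, such as Normal 3. The labels name separate samples but not separate mice, so p-values reflect only how these samples vary, which may be technical. Levels are CPM, the usual depth-scaled count, of a library that reads 1 tag near the 3′ end of a transcript, scaled by the TMM method. The tissue label was checked with 10 fast muscle fibre genes, whose summed level was 109343.3 to 126063.7 CPM in RP, 71647.7 to 87926.1 CPM in Cisplatin and 101142.9 to 118083.2 CPM in Normal. Of these 10 fibre genes, 5 fell in Cisplatin against Normal and 6 rose in RP against Cisplatin. The 7 fibroblast markers summed to 1896.8 to 2845.1 CPM in RP, 337.8 to 733.7 CPM in Cisplatin and 2727.0 to 3939.7 CPM in Normal, and all 7 fell in Cisplatin against Normal and rose in RP against Cisplatin. The 6 macrophage markers summed to 94.3 to 137.9 CPM in RP, 20.9 to 60.7 CPM in Cisplatin and 182.6 to 235.9 CPM in Normal. Erythroid markers summed to 64.1 to 405.6 CPM in RP, 34.0 to 60.3 CPM in Cisplatin and 4114.6 to 8895.3 CPM in Normal, and all 4 tested were called lower in RP than in Normal and lower in Cisplatin than in Normal. Tendon markers summed to 21.7 to 31.4 CPM in RP, 1.41 to 3.81 CPM in Cisplatin and 68.7 to 136.2 CPM in Normal. All 6 smooth muscle and pericyte markers and all 4 adipocyte markers fell in Cisplatin against Normal and rose in RP against Cisplatin. Adipocyte sums still overlapped, at 43.1 to 209.1 CPM in Cisplatin and 189.9 to 1349.6 CPM in Normal. Of 6 endothelial markers, 1 rose and 3 fell in Cisplatin against Normal, and 2 rose and 1 fell in RP against Cisplatin. Of 5 Schwann cell markers, 3 fell in the first comparison and 3 rose in the second, with no call the other way. In bulk tissue, fewer cells of a type and less RNA per cell cannot be told apart, and the part of the cell markers in the changes below was not tested.

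Of the 64 adaptor genes, 60 had at least 1 count and 52 had enough counts to be tested, namely 30 Klhl, 8 Kbtbd and 14 Asb genes. Muscle used a small part of the set heavily. Klhl31, Klhl41, Asb2 and Klhl21 together took 47.0% of all counts of the 64 genes, and the 9 genes that averaged 100 CPM or more took 78.2%, the others being Asb5, Asb11, Klhl40, Klhl24 and Asb8. Another 21 tested genes averaged 10 to 100 CPM, and 22 were below 10 CPM. Klhl1, Klhl14, Asb9 and Asb16 had no count in any library, so that their summed count lies below a floor of 3 counts. The other untested genes had 2 to 39 counts over all 9 libraries: 39 for Klhl33, 9 for Asb18, 8 for Kbtbd6, 7 for Klhl32, 5 for Klhl10, 4 for Klhl3, 2 for Klhl35 and 2 for Asb17. Klhl3, an adaptor of WNK kinases in the kidney, was thus too scarce to compare at this depth.

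The summed level of the 64 genes moved little while single genes moved severalfold. It was 3262.8 to 3338.5 CPM in RP, 3235.7 to 3519.3 CPM in Cisplatin and 3042.4 to 3238.7 CPM in Normal. The Klhl genes summed to 1828.3 to 1900.8 CPM in RP, 1821.7 to 2065.2 CPM in Cisplatin and 1820.4 to 1935.1 CPM in Normal, so that the 3 groups overlapped. Kbtbd genes summed to 60.8 to 73.5 CPM in RP, 55.9 to 64.9 CPM in Cisplatin and 73.8 to 78.8 CPM in Normal, where both cisplatin-treated groups lay below every Normal library. Asb genes summed to 1363.9 to 1401.4 CPM in RP, 1224.5 to 1398.2 CPM in Cisplatin and 1143.2 to 1279.6 CPM in Normal, and every RP library lay above every Normal library.

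In Cisplatin against Normal, 10 of the 52 tested adaptor genes rose and 15 fell at an adjusted p under 0.05 (edgeR's quasi-likelihood test, Benjamini-Hochberg adjustment over 12859 genes), which is 48.1%. Over all 12859 genes 54.5% were called in this comparison, 26.3% higher and 28.2% lower, so the pooled share among adaptors was near that of all genes. At a mean of 10 CPM or more, 15 of 30 adaptors were called (50%), against 63.8% of all genes at that level, and whether these shares differ was not tested. Cisplatin and Normal libraries did not overlap in 33 of the 52 (63.5%), against 62.2% of all genes. Their median log2 fold change was -0.07 against -0.08 over all genes, and their median absolute change was 0.58 against 0.68. In RP against Cisplatin, which shares the Cisplatin libraries with the first comparison, 13 rose and 12 fell, again 48.1%, against 48.8% of all genes, of which 24.6% rose and 24.2% fell. RP and Cisplatin did not overlap in 28 adaptors (53.8%), against 56.8% of all genes. There the median absolute change was 0.67 for the adaptors and 0.61 for all genes. In RP against Normal only Asb11 was called, 1.92% of the adaptors against 0.505% of all genes, or 65 genes (0.187% higher and 0.319% lower). The 12 untested genes were removed for low counts, and these shares describe the 52 that remained.

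**Figure D1:**
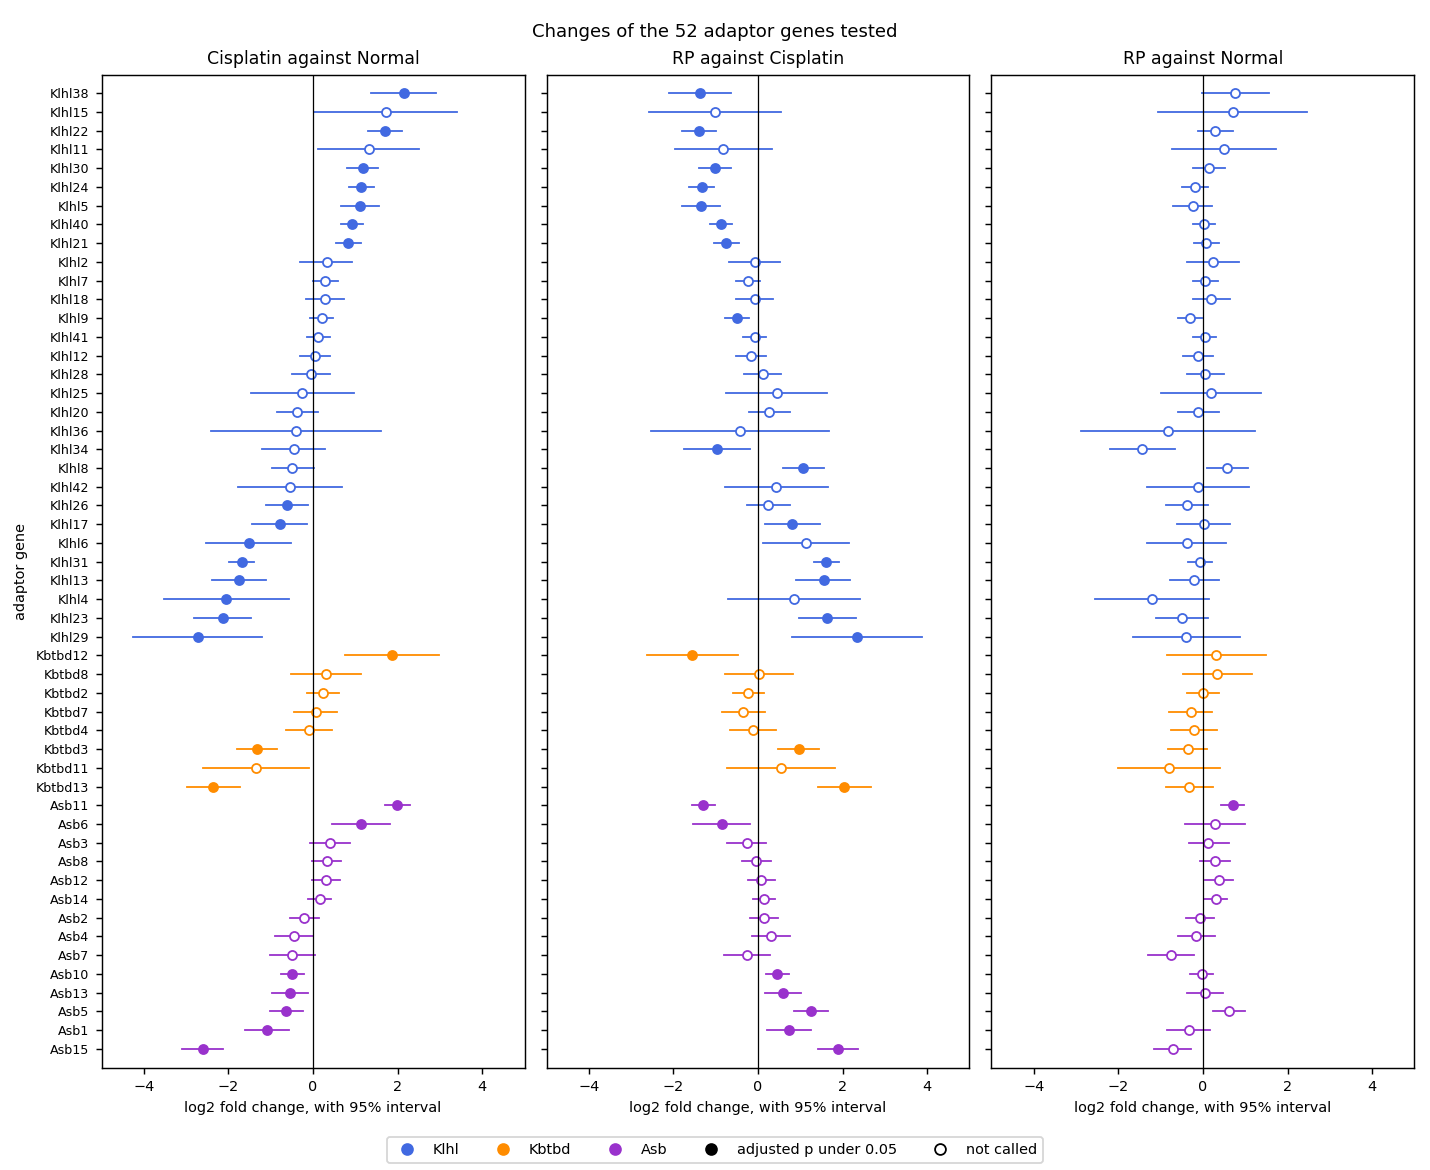
Log2 fold change (horizontal axis) of each of the 52 tested adaptor genes (vertical axis) in 3 panels, 1 for each comparison, with points for the fitted value, lines for the 95% interval, colours for the Klhl, Kbtbd and Asb families and filled points for an adjusted p under 0.05. In the first panel 10 filled points lie above 0 and 15 below, in the second 13 and 12, and in the third Asb11 alone is filled.

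By family, 7 of 30 Klhl genes rose and 8 fell in Cisplatin against Normal (50%), and 6 rose and 9 fell in RP against Cisplatin (50%). Among 8 Kbtbd genes, Kbtbd12 rose and Kbtbd3 and Kbtbd13 fell with cisplatin (37.5%), and in RP against Cisplatin 2 rose and 1 fell (37.5%). Of 14 Asb genes, Asb6 and Asb11 rose and 5 fell in Cisplatin against Normal (50%). In RP against Cisplatin 5 of the 14 rose and 2 fell (50%). Over all genes the shares in these comparisons were 54.5% and 48.8%. Median log2 fold changes were -0.34 and 0.14 for Asb, -0.0 and -0.08 for Klhl and -0.02 and -0.04 for Kbtbd genes. Those of all genes were -0.08 and 0.07, or 0.15 and -0.14 at 10 CPM or more. Among the 16 tested adaptors listed from general knowledge as enriched in striated muscle, 5 rose and 5 fell in Cisplatin against Normal (62.5%). All genes gave 54.5%, or 63.8% at 10 CPM or more, a level that Klhl34, Klhl38 and Kbtbd12 of this list did not reach. In RP against Cisplatin 5 of the 16 rose and 6 fell (68.8%), against 48.8% of all genes and 59.4% of those of at least 10 CPM. Of the 36 other tested adaptors, 5 rose and 10 fell in Cisplatin against Normal (41.7%). In RP against Cisplatin 8 of these 36 rose and 6 fell (38.9%). Whether these shares differ was not tested. Called rises in Cisplatin against Normal ran from 0.83 to 2.14 on the log2 scale and called falls from -2.72 to -0.49.

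The genes of nemaline myopathy did not behave as one group. Klhl40, which stabilises the thin filament proteins nebulin and leiomodin-3, had 157.8, 153.6 and 168.5 CPM in RP, 280.7, 311.5 and 293.1 CPM in Cisplatin and 140.2, 164.2 and 166.9 CPM in Normal. Every Cisplatin library lay above every library of the other groups, which overlapped each other. Klhl40 was 1.88-fold higher in Cisplatin than in Normal (log2 fold change 0.91 ± 0.12 SE, adjusted p = 3.28e-05). In RP it was 1.85-fold lower than in Cisplatin (-0.88 ± 0.12, adjusted p = 5.82e-05), and RP against Normal gave 0.03 with a 95% interval of -0.23 to 0.28.

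Klhl41, a close relative of Klhl40 and also a chaperone of nebulin, had 435.4, 373.9 and 465.7 CPM in RP, 437.1, 424.8 and 479.6 CPM in Cisplatin and 424.5, 388.4 and 422.8 CPM in Normal. Cisplatin libraries lay just above the Normal ones, and RP overlapped both. Its log2 fold change was 0.12 in Cisplatin against Normal (95% interval -0.15 to 0.39, adjusted p = 0.452), an interval that does not reach the 0.65 to 1.17 of Klhl40. In RP against Cisplatin it was -0.07 (95% interval -0.35 to 0.20, adjusted p = 0.658). Part of this count is uncertain, since the last 400 bases of the Klhl41 transcript share stretches of 147 to 152 bases, at an identity of at least 98%, with transcripts of Ankrd17, Coq4, Slx1b and Gm43637.

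Kbtbd13, the third of these adaptors and a much less abundant one, had 12.5, 18.7 and 10.4 CPM in RP, 3.64, 2.38 and 4.16 CPM in Cisplatin and 18.2, 13.2 and 20.6 CPM in Normal. All Cisplatin values were the lowest, while RP and Normal overlapped. It was 5.14-fold lower in Cisplatin than in Normal (-2.36 ± 0.29, adjusted p = 1.87e-05) and 4.11-fold higher in RP than in Cisplatin (2.04 ± 0.29, adjusted p = 8.80e-05). Transcripts of the partners of Klhl40 and Klhl41 were counted as well. Neb, which encodes nebulin, averaged 5082.3 ± 1029.6 CPM in RP, 5897.0 ± 1834.4 in Cisplatin and 5801.2 ± 385.3 in Normal (SD, n = 3 each) and was not called in any comparison. Lmod3, for leiomodin-3, averaged 143.0 ± 32.6 CPM in RP, 109.3 ± 8.86 in Cisplatin and 272.6 ± 103.3 in Normal. It fell in Cisplatin against Normal (-1.32 ± 0.24, adjusted p = 0.000365), and its 0.39 ± 0.23 in RP against Cisplatin was not called (adjusted p = 0.182).

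Klhl31 was the most abundant adaptor and had the lowest Cisplatin level relative to Normal of the 9 genes above 100 CPM. In mice it acts in skeletal muscle and binds filamin C. It had 652.7, 674.8 and 623.3 CPM in RP, 234.9, 184.3 and 218.7 CPM in Cisplatin and 715.4, 732.3 and 601.5 CPM in Normal. RP and Normal overlapped, and each of their libraries was more than 2 times as high as any Cisplatin library. The level was 3.21-fold lower in Cisplatin than in Normal (-1.68 ± 0.14, adjusted p = 5.86e-07) and 3.06-fold higher in RP than in Cisplatin (1.61 ± 0.14, adjusted p = 1.45e-06). Flnc, for filamin C, ran the other way: 120.7 ± 28.5 CPM in RP, 601.5 ± 70.6 in Cisplatin and 126.4 ± 29.4 in Normal, with 2.25 ± 0.20 in Cisplatin against Normal (adjusted p = 1.08e-06) and -2.32 ± 0.20 in RP against Cisplatin (adjusted p = 1.48e-06).

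**Figure D2:**
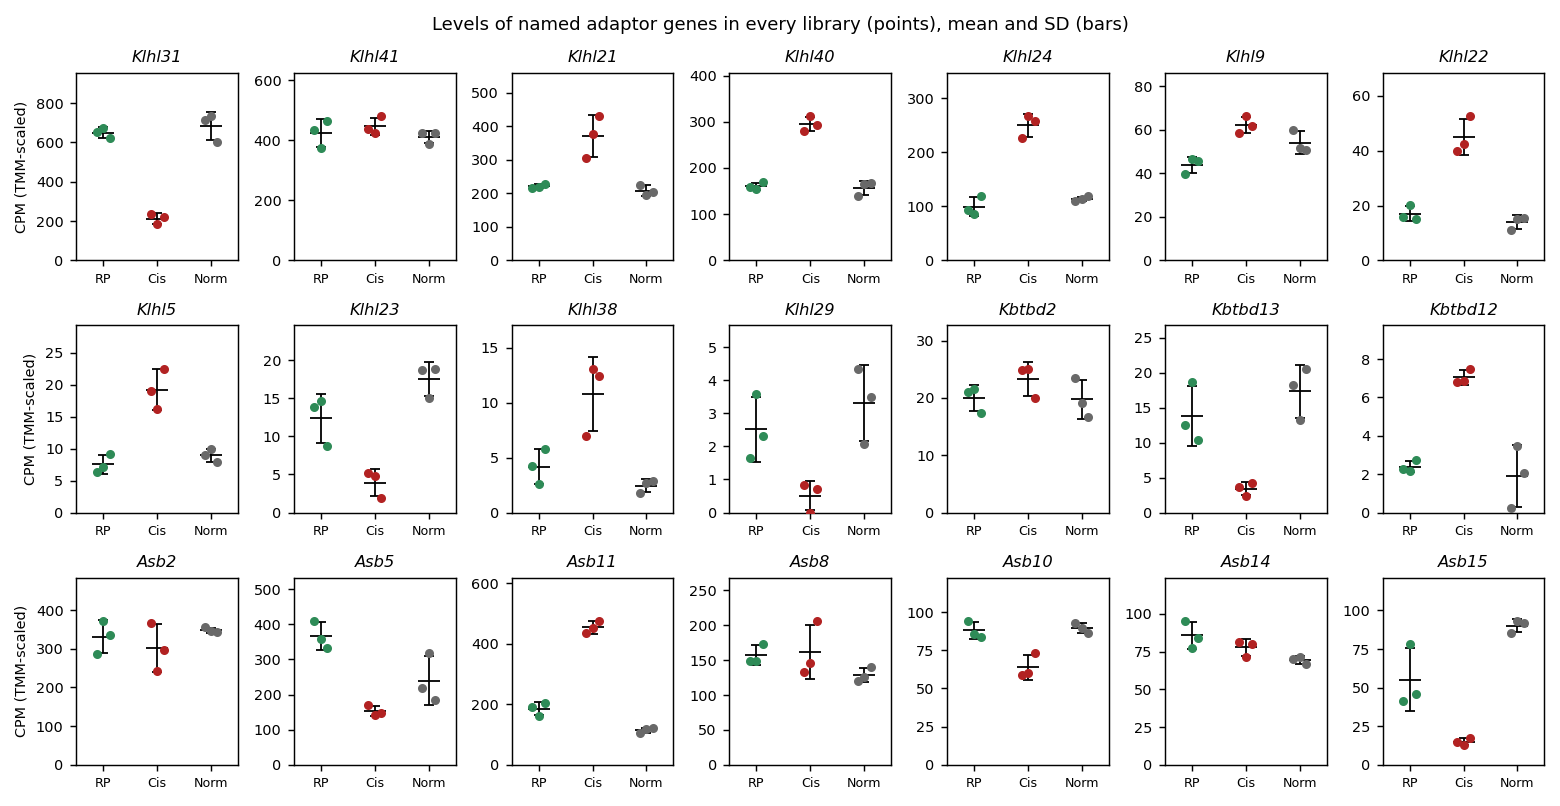
CPM (vertical axes, each starting at 0) of 21 adaptor genes in RP, Cisplatin and Normal, with a point for each of the 3 libraries, a horizontal line for the mean and bars for the SD. Klhl31, Kbtbd13 and Asb15 are lowest in Cisplatin and Klhl40, Klhl24 and Asb11 highest there, while the Klhl41 means lie between 411.9 and 447.1 CPM.

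The promoters of 4 of these genes are shown because Klhl31, Klhl40, Klhl41 and Asb11 are all abundant here and yet did not change alike. In Cisplatin against Normal, Klhl31 fell, Klhl40 and Asb11 rose and Klhl41 was not called. Each is the 250 bases before the first RefSeq start of the gene on build GRCm38.p6, read 5′ to 3′ on the plus strand. Capitals mark matches, on either strand, to CAGCTG, an E-box bound by myogenic factors, or to the MEF2 motif. GTAAACA, a FoxO motif, was searched too.
Klhl31 at chr9:77636482-77636731: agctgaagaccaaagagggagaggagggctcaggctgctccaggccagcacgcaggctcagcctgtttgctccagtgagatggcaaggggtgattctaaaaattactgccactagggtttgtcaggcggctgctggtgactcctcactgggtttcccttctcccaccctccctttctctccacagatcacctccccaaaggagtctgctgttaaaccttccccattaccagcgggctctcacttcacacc
Klhl40 at chr9:121777357-121777606: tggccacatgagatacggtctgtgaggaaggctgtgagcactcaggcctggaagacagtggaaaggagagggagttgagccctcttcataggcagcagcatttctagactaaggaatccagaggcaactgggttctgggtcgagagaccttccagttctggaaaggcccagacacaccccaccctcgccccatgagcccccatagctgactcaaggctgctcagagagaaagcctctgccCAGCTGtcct
Klhl41 at chr2:69669870-69670119: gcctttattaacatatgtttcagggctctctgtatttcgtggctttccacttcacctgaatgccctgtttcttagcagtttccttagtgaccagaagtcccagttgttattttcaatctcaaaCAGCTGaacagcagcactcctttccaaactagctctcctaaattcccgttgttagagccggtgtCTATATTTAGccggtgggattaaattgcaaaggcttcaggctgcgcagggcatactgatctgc
Asb11 at chrX:164436744-164436993: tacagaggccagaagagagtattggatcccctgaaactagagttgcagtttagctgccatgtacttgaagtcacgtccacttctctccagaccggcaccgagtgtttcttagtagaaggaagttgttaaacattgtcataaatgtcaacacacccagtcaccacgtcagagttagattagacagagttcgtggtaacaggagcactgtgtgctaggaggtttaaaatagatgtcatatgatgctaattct
The Klhl40 window holds the E-box 10 to 5 bases before the start. Klhl41 has an E-box at 127 to 122 and a MEF2 match at 63 to 54 bases before it, and the windows of Klhl31 and Asb11 hold none of the 3 motifs. The GENCODE M21 annotation starts Klhl31 at base 77636500, inside its window. By that annotation most of the Klhl31 window lies within the gene, and the bases before that start were not searched. RefSeq gave a window for 45 of the 52 tested adaptors. Of these 45, 9 hold the E-box (Asb7, Klhl4, Klhl5, Klhl6, Klhl13, Klhl21, Klhl34, Klhl40 and Klhl41), against 12.8% of all 27018 windows, and 3 hold the MEF2 motif (Asb12, Kbtbd12 and Klhl41), against 0.52%. None of the 45 holds the FoxO motif, which 3.09% of all windows do. Such matches only describe the letters of these windows.

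Among the other Klhl genes of muscle, those that changed rose with cisplatin. Klhl30 had 25.2, 35.8 and 30.8 CPM in RP, 52.1, 59.7 and 73.9 CPM in Cisplatin and 31.4, 24.3 and 27.0 CPM in Normal. The Cisplatin values stood above all others, at 1.17 ± 0.18 in Cisplatin against Normal (log2 fold change, adjusted p = 9.20e-05) and -1.02 ± 0.17 in RP against Cisplatin (adjusted p = 0.000339). Klhl38 was scarce, at 4.24, 2.58 and 5.75 CPM in RP, 6.93, 13.1 and 12.4 CPM in Cisplatin and 1.81, 2.66 and 2.89 CPM in Normal. Its Cisplatin libraries were the highest, and it was 4.39-fold higher in Cisplatin than in Normal (2.14 ± 0.36, adjusted p = 0.000243). In RP against Cisplatin it fell by 1.37 ± 0.34 (adjusted p = 0.0045). Klhl38 overlaps the antisense gene Gm15943 at its 3′ end, and no strand setting is given in the sources used here, so reads of these genes cannot be told apart.

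Klhl34 was the odd gene among these. It had 3.20, 4.07 and 6.05 CPM in RP, 10.1, 7.13 and 8.92 CPM in Cisplatin and 10.4, 6.59 and 19.0 CPM in Normal. RP libraries were the lowest of all, whereas Cisplatin and Normal overlapped. The difference of -0.97 ± 0.36 in RP against Cisplatin was called (adjusted p = 0.0405) but lost its call in 4 of 6 fits that left out 1 library, those without Cisplatin 1, Cisplatin 3, RP 1 or RP 2 (-0.96 to -0.78, adjusted p = 0.077 to 0.139), and with library size as the only scaling (-0.83, adjusted p = 0.081).

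Klhl21, Klhl24 and Klhl22 also rose with cisplatin. Klhl21, which acts on Aurora B in dividing human cells, had 215.9, 220.1 and 226.9 CPM in RP, 305.6, 376.6 and 429.4 CPM in Cisplatin and 225.0, 194.8 and 205.4 CPM in Normal. Cisplatin libraries were all the highest and also the most spread. The changes were 0.83 ± 0.14 in Cisplatin against Normal (adjusted p = 0.000215) and -0.75 ± 0.14 in RP against Cisplatin (adjusted p = 0.000615). Klhl24, an adaptor of keratin 14 in human skin cells, had 93.7, 86.0 and 119.2 CPM in RP, 225.8, 266.6 and 257.9 CPM in Cisplatin and 109.2, 113.6 and 118.3 CPM in Normal. It was 2.20-fold higher in Cisplatin than in Normal (1.14 ± 0.14, adjusted p = 1.73e-05) and 2.51-fold lower in RP than in Cisplatin (-1.33 ± 0.14, adjusted p = 7.69e-06), with RP and Normal overlapping. Klhl22, which targets the mTORC1 regulator DEPDC5 in human cells, had 15.7, 20.2 and 15.2 CPM in RP, 39.9, 42.4 and 52.5 CPM in Cisplatin and 10.9, 15.1 and 15.6 CPM in Normal. No Cisplatin library came near the others, and the gene was 3.23-fold higher there than in Normal (1.69 ± 0.19, adjusted p = 7.60e-06) and 2.63-fold lower in RP than in Cisplatin (-1.40 ± 0.18, adjusted p = 4.42e-05).

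Klhl5, of the same direction at a lower level, had 6.41, 7.05 and 9.18 CPM in RP, 19.0, 16.2 and 22.5 CPM in Cisplatin and 8.94, 9.94 and 7.94 CPM in Normal. RP and Normal overlapped below every Cisplatin value, with 1.10 ± 0.21 in Cisplatin against Normal (adjusted p = 0.000595) and -1.35 ± 0.21 in RP against Cisplatin (adjusted p = 0.00017). Klhl9 works with Klhl13 on Aurora B in dividing human cells, and the pair differed here. Klhl9 had 39.8, 46.4 and 45.5 CPM in RP, 58.5, 66.2 and 62.0 CPM in Cisplatin and 60.1, 51.5 and 50.7 CPM in Normal. RP was the lowest group and Cisplatin overlapped Normal. It fell in RP against Cisplatin (-0.50 ± 0.13, adjusted p = 0.00608), while Cisplatin against Normal gave 0.20 (95% interval -0.08 to 0.48, adjusted p = 0.206). Klhl13 had 7.44, 6.85 and 10.7 CPM in RP, 2.11, 3.71 and 2.62 CPM in Cisplatin and 10.9, 7.63 and 10.2 CPM in Normal. Here Cisplatin was the low group, with -1.75 ± 0.30 against Normal (adjusted p = 0.000242), and RP was higher than Cisplatin by 1.55 ± 0.30 on the log2 scale (adjusted p = 0.000765).

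Klhl genes that fell with cisplatin, Klhl31 apart, averaged 11.3 CPM or less over the 9 libraries. Klhl23 had 13.9, 14.6 and 8.68 CPM in RP, 5.17, 4.75 and 1.90 CPM in Cisplatin and 18.7, 15.0 and 18.9 CPM in Normal. The groups did not overlap, Cisplatin being lowest and Normal highest. It was 4.41-fold lower in Cisplatin than in Normal (-2.14 ± 0.31, adjusted p = 7.64e-05) and 3.11-fold higher in RP than in Cisplatin (1.64 ± 0.31, adjusted p = 0.000806). Klhl29 had 1.65, 3.58 and 2.32 CPM in RP, 0.822, 0 and 0.714 CPM in Cisplatin and 4.35, 2.08 and 3.49 CPM in Normal. Each Cisplatin value was under 1 CPM and none of the others was. Its change of -2.72 ± 0.71 in Cisplatin against Normal was called (adjusted p = 0.00527) but had the widest error of the called adaptors, and it was -2.08 without Cisplatin 2, the library at 0. Its 2.33 ± 0.71 in RP against Cisplatin (adjusted p = 0.0151) was not called without RP 2 (2.0, adjusted p = 0.0612) and was 1.69 without Cisplatin 2.

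Klhl17 (-0.79, adjusted p = 0.041), Klhl26 (-0.62, adjusted p = 0.0394) and Klhl4 (-2.05, adjusted p = 0.0214) were called lower in Cisplatin than in Normal, and each lost its call in at least 4 of the 6 fits that left out 1 library. Klhl17 did so without Cisplatin 1, Cisplatin 3 or any Normal library (-0.84 to -0.64, adjusted p = 0.062 to 0.128). Klhl26 did so without Cisplatin 1, Cisplatin 3, Normal 1 or Normal 2 (-0.67 to -0.43, adjusted p = 0.0538 to 0.172), and Klhl4 without Cisplatin 1, Cisplatin 2, Normal 2 or Normal 3 (-2.04 to -1.71, adjusted p = 0.052 to 0.0899), while without Cisplatin 3 it was called at -2.81. Klhl6, best known from B lymphocytes, had 3.93, 2.28 and 2.42 CPM in RP, 1.17, 1.62 and 1.07 CPM in Cisplatin and 4.35, 1.85 and 5.05 CPM in Normal. Cisplatin lay lowest and the fall was -1.52 ± 0.47 (adjusted p = 0.0137), or -1.23 without Normal 3 (adjusted p = 0.0707). Of 5 B lymphocyte markers, 4 were detected and none could be tested. Their summed level was 0 to 0.795 CPM in RP, 0 to 0.285 CPM in Cisplatin and 0.604 to 1.5 CPM in Normal. Which cells the Klhl6 counts came from was not tested.

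Klhl8 was the Klhl gene called in RP against Cisplatin that rose without a call in Cisplatin against Normal. It had 32.6, 34.5 and 34.7 CPM in RP, 16.2, 17.7 and 14.6 CPM in Cisplatin and 33.3, 18.4 and 16.4 CPM in Normal. RP was above Cisplatin in every library, while 1 Normal library was at the RP level and the other 2 were near the Cisplatin level. RP against Cisplatin gave 1.07 ± 0.23 (adjusted p = 0.00161) and Cisplatin against Normal gave -0.49 ± 0.23 (adjusted p = 0.087), or -0.66 without Normal 3 (adjusted p = 0.029). Klhl41 and 11 other tested Klhl genes were not called in any comparison. The most abundant of the 11 were Klhl7 and Klhl12. Klhl7 averaged 48.0 CPM in RP, 56.5 CPM in Cisplatin and 46.2 CPM in Normal, and was called in Cisplatin against Normal without Cisplatin 1 (0.39, adjusted p = 0.0356). Klhl12, which acts on the COPII coat in human cells, averaged 16.1 CPM in RP, 18.0 CPM in Cisplatin and 17.5 CPM in Normal. For Klhl12 the 95% interval of the log2 fold change was -0.31 to 0.40 in Cisplatin against Normal and -0.52 to 0.19 in RP against Cisplatin.

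Of the remaining Kbtbd genes, Kbtbd12 moved against Kbtbd13. It had 2.27, 2.19 and 2.72 CPM in RP, 6.81, 6.84 and 7.50 CPM in Cisplatin and 0.242, 3.47 and 2.05 CPM in Normal. Every Cisplatin library was above all the others, and Normal was widely spread. Kbtbd12 rose by 1.86 ± 0.52 in Cisplatin against Normal (adjusted p = 0.00779), or by 1.36 without Normal 1 and by 2.62 without Normal 2, both called. It fell by 1.55 ± 0.50 in RP against Cisplatin (adjusted p = 0.0198), which was not called without RP 1 (-1.52, adjusted p = 0.0592) or without RP 2 (-1.49, adjusted p = 0.058). Kbtbd3 had 10.4, 10.5 and 9.38 CPM in RP, 4.46, 5.04 and 6.07 CPM in Cisplatin and 10.6, 13.2 and 15.3 CPM in Normal. Its 3 groups did not overlap, and it fell by 1.33 ± 0.22 in Cisplatin against Normal (adjusted p = 0.000222) and rose by 0.96 ± 0.22 in RP against Cisplatin (adjusted p = 0.00285).

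Kbtbd2, the most abundant of the Kbtbd genes, limits the p85alpha subunit of PI 3-kinase in mice. It had 21.0, 21.5 and 17.4 CPM in RP, 24.9, 25.1 and 19.9 CPM in Cisplatin and 23.4, 19.1 and 16.7 CPM in Normal. All groups overlapped, and the 95% intervals of the log2 fold change were -0.14 to 0.62 in Cisplatin against Normal and -0.60 to 0.15 in RP against Cisplatin. Kbtbd7, which acts with Kbtbd6 on TIAM1 in human cells, averaged 8.11 ± 1.56 CPM in RP, 10.3 ± 1.97 in Cisplatin and 9.93 ± 1.88 in Normal (SD, n = 3 each) and was not called either. Kbtbd4 shares the last 400 bases of its transcript with Ptpmt1 on the opposite strand, so its mean levels of 7.49 CPM in RP, 8.09 CPM in Cisplatin and 8.71 CPM in Normal may include reads of that gene.

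Asb11 and Asb15 had the largest called changes of the Asb genes in Cisplatin against Normal, in opposite directions. Asb11, whose zebrafish counterpart degrades the Notch ligand DeltaA, had 190.9, 161.2 and 205.1 CPM in RP, 434.9, 451.5 and 475.6 CPM in Cisplatin and 104.6, 117.5 and 120.2 CPM in Normal. The 3 groups did not overlap, with RP between the other two. Asb11 was 3.98-fold higher in Cisplatin than in Normal (1.99 ± 0.13, adjusted p = 1.02e-07) and 2.44-fold lower in RP than in Cisplatin (-1.29 ± 0.13, adjusted p = 4.73e-06). In RP it stayed 1.63-fold above Normal (0.70 ± 0.13, adjusted p = 0.032). That last call was lost without any 1 of Normal 1, Normal 2, Normal 3, RP 1 or RP 3, at 0.63 to 0.75 and adjusted p from 0.0527 to 0.186.

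Asb15, which affects muscle growth in rats, was the counterpart. It had 41.2, 78.4 and 45.9 CPM in RP, 14.7, 12.6 and 17.1 CPM in Cisplatin and 85.4, 93.3 and 92.0 CPM in Normal. Again the groups were separate with RP in the middle, and RP was widely spread because of 1 high library. Asb15 was 6.10-fold lower in Cisplatin than in Normal (-2.61 ± 0.22, adjusted p = 8.39e-07) and 3.73-fold higher in RP than in Cisplatin (1.90 ± 0.22, adjusted p = 1.72e-05). RP against Normal gave -0.71 ± 0.21 (95% interval -1.15 to -0.27, adjusted p = 0.169), and -1.05 without RP 2, which was called (adjusted p = 0.00938).

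Asb5 was the one adaptor of high level with RP above both other groups. It had 410.0, 357.6 and 332.6 CPM in RP, 170.1, 142.5 and 148.8 CPM in Cisplatin and 217.3, 317.7 and 183.1 CPM in Normal. Groups did not overlap, and Normal 2 lay close to the lowest RP library. RP was 2.38-fold above Cisplatin (1.25 ± 0.18, adjusted p = 9.86e-05). Cisplatin was 1.56-fold below Normal (-0.64 ± 0.18, adjusted p = 0.00876), but this was not called without Normal 2 (-0.37, adjusted p = 0.0646), while RP against Normal was 0.62 ± 0.18 (adjusted p = 0.17) and was called without Normal 2 (0.88, adjusted p = 0.0226). Asb5 overlaps 5330439A09Rik on the opposite strand at its 3′ end, so its counts carry the same limit as those of Klhl38.

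Asb2, which targets filamins, was the most abundant Asb gene, with 286.7, 372.6 and 335.8 CPM in RP, 366.7, 242.5 and 296.6 CPM in Cisplatin and 355.9, 347.3 and 343.2 CPM in Normal. The groups overlapped, and the log2 fold change was -0.21 in Cisplatin against Normal (95% interval -0.54 to 0.13) and 0.14 in RP against Cisplatin (95% interval -0.20 to 0.47). Flna, for filamin A, averaged 52.6 ± 3.62 CPM in RP, 28.0 ± 2.54 in Cisplatin and 60.3 ± 6.62 in Normal and fell by 1.10 ± 0.14 with cisplatin (adjusted p = 2.12e-05). Flnc, for filamin C, rose, as given above.

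Asb8 had 148.4, 149.3 and 173.2 CPM in RP, 133.5, 145.6 and 206.4 CPM in Cisplatin and 120.7, 126.0 and 140.2 CPM in Normal. RP lay above Normal in every library and Cisplatin overlapped both, and no difference was called (0.33 in Cisplatin against Normal, 95% interval -0.02 to 0.67), although that one was called without Cisplatin 1 (0.45, adjusted p = 0.0359). Asb14 had 95.4, 77.7 and 84.0 CPM in RP, 81.3, 71.6 and 80.3 CPM in Cisplatin and 70.3, 71.6 and 66.7 CPM in Normal. Its values were close in all groups, at 0.16 in Cisplatin against Normal (95% interval -0.11 to 0.43) and 0.14 in RP against Cisplatin (95% interval -0.13 to 0.41). Asb10 had 94.3, 85.9 and 84.0 CPM in RP, 58.6, 59.9 and 73.4 CPM in Cisplatin and 93.1, 89.6 and 86.6 CPM in Normal. Cisplatin was lowest without overlap, a called difference of -0.49 ± 0.13 from Normal (adjusted p = 0.00531), and RP was 0.46 ± 0.13 above Cisplatin (adjusted p = 0.00871).

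Among the scarcer Asb genes, Asb1 fell by 1.08 ± 0.24 in Cisplatin against Normal (adjusted p = 0.00189), at means of 14.8 CPM in RP, 8.83 CPM in Cisplatin and 18.7 CPM in Normal. Its 0.74 ± 0.24 in RP against Cisplatin (adjusted p = 0.0211) was not called without Cisplatin 3 (0.61, adjusted p = 0.0779) or RP 2 (0.45, adjusted p = 0.135). Asb6 averaged 4.48 CPM in RP, 8.14 CPM in Cisplatin and 3.67 CPM in Normal and rose by 1.14 ± 0.32 in Cisplatin against Normal (adjusted p = 0.00822). Its -0.86 ± 0.31 in RP against Cisplatin (adjusted p = 0.035) lost its call without any of Cisplatin 1, 2 and 3, RP 1 or RP 2 (-0.89 to -0.74, adjusted p = 0.0569 to 0.113). Asb13 was called at -0.54 in Cisplatin against Normal and 0.59 in RP against Cisplatin (adjusted p = 0.0355 and 0.0246), and the first was lost without any Cisplatin library, Normal 2 or Normal 3 (-0.57 to -0.40, adjusted p = 0.0592 to 0.153). The second was lost without Cisplatin 2, Cisplatin 3, RP 2 or RP 3 (0.48 to 0.58, adjusted p = 0.0625 to 0.0946). Asb3, described as an adaptor of TNF receptor 2, averaged 12.7 CPM in RP, 15.2 CPM in Cisplatin and 11.5 CPM in Normal and was not called.

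**Figure D3:**
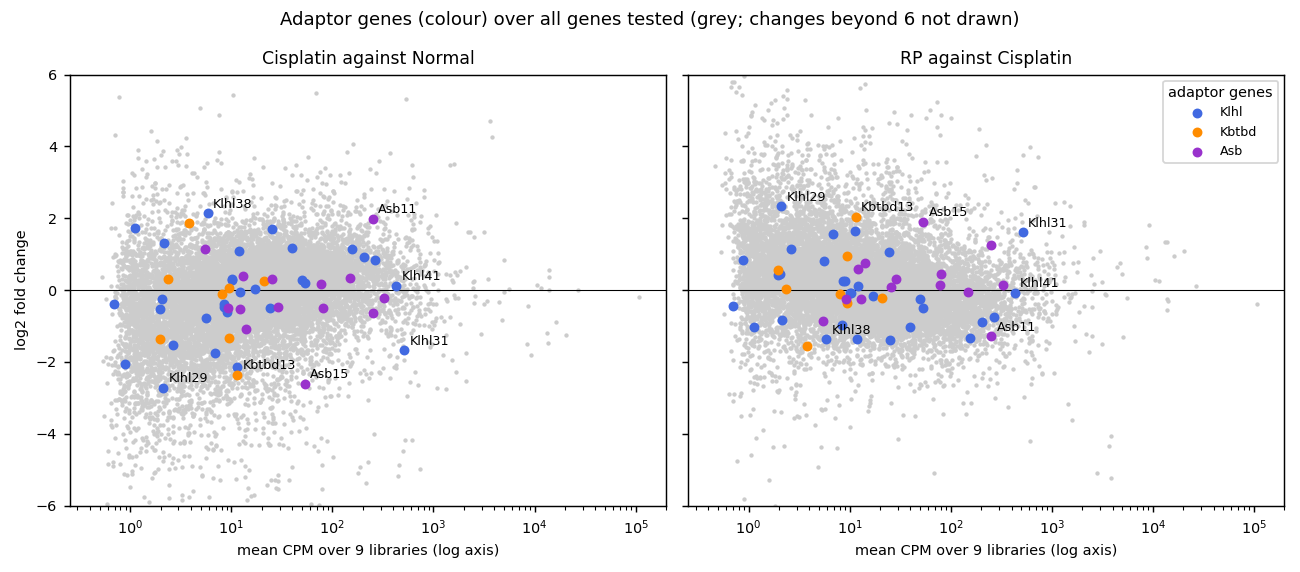
Log2 fold change (vertical axis) against mean CPM over the 9 libraries (horizontal log axis) in Cisplatin against Normal and in RP against Cisplatin, with grey points for the 12859 genes tested, changes beyond 6 not drawn, and coloured points for the adaptor genes by family. Asb11 at 1.99 and Klhl31 at -1.68 lie far from 0 for their level in the left panel, whereas Klhl41, between them in height, is at 0.12.

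The rest of the ligase was read from lists of its other subunits. Of 10 cullins and RING subunits, 4 rose and 1 fell in Cisplatin against Normal (50%, against 54.5% of all genes). Their median log2 fold change was 0.41, against -0.08 over all genes and 0.15 over all genes of at least 10 CPM. In RP against Cisplatin 4 fell and none rose (40.0%, against 48.8% of all genes), with a median of -0.45, against 0.07 over all genes and -0.14 over those of at least 10 CPM. There, 2 were higher and 5 lower at an unadjusted p under 0.05, and DESeq2 called 5 falls and no rise. Cul3, the scaffold of Klhl and Kbtbd adaptors, averaged 157.4 ± 18.2 CPM in RP, 258.1 ± 34.9 in Cisplatin and 152.8 ± 11.4 in Normal. It rose by 0.76 ± 0.14 in Cisplatin against Normal (adjusted p = 0.000443) and fell by 0.71 ± 0.14 in RP against Cisplatin (adjusted p = 0.000849). Cul5, the scaffold of Asb adaptors, averaged 238.7 ± 30.6 CPM in RP, 305.9 ± 52.3 in Cisplatin and 247.2 ± 14.9 in Normal and was not called (0.31 ± 0.15, adjusted p = 0.0931, and -0.36 ± 0.15, adjusted p = 0.0591). Cul1, which serves F-box adaptors, had the smallest p, with 1.34 ± 0.18 and -1.02 ± 0.18 in the same comparisons (adjusted p = 3.22e-05 and 0.000353). The RING subunits Rbx1 and Rnf7 were not called, at 0.22 ± 0.12 and 0.12 ± 0.13 in Cisplatin against Normal.

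Tceb1, the elongin C gene, averaged 107.0 ± 5.02 CPM in RP, 167.4 ± 23.1 in Cisplatin and 97.3 ± 7.46 in Normal, rising by 0.78 ± 0.13 in Cisplatin against Normal (adjusted p = 0.000218). Tceb2, for its partner elongin B, averaged 190.0 ± 23.3 CPM in RP, 153.0 ± 12.8 in Cisplatin and 165.7 ± 19.3 in Normal and was not called (-0.12 ± 0.14). With other SOCS-box genes, 16 were tested, of which 4 rose and 4 fell in Cisplatin against Normal (50%, against 54.5% of all genes) and 2 rose and 4 fell in RP against Cisplatin (37.5%, against 48.8%). Spsb1 rose by 1.46 ± 0.15 with cisplatin (adjusted p = 4.73e-06), and Cish, an inhibitor of cytokine signalling, fell by 2.03 ± 0.28 (adjusted p = 4.49e-05) and was also 1.68 ± 0.27 lower on the log2 scale in RP than in Normal, at means of 14.6 CPM in RP and 47.0 CPM in Normal (adjusted p = 0.0151).

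In the list of 23 neddylation and cullin cycling genes, 10 rose and 3 fell in Cisplatin against Normal (56.5%, against 54.5% of all genes and 63.8% of those of at least 10 CPM), with a median of 0.25. In RP against Cisplatin 3 rose and 8 fell (47.8%, against 48.8% and 59.4%), with a median of -0.17. Both medians lay close to the 0.15 and -0.14 of all genes of at least 10 CPM. Nedd8 itself averaged 186.0 ± 8.55 CPM in RP, 223.8 ± 38.0 in Cisplatin and 174.7 ± 8.54 in Normal, with 0.36 ± 0.13 in Cisplatin against Normal (adjusted p = 0.0374). Cops5, the catalytic subunit of the COP9 signalosome, averaged 168.2 ± 10.7 CPM in RP, 300.4 ± 52.2 in Cisplatin and 142.7 ± 10.6 in Normal. It rose by 1.07 ± 0.14 in Cisplatin against Normal (adjusted p = 3.03e-05) and fell by 0.84 ± 0.14 in RP against Cisplatin (adjusted p = 0.000295). Arih2, an E3 that works with CUL5, rose by 0.89 ± 0.13 (adjusted p = 0.000102). Of 14 CUL3 adaptors of other names, 4 rose and 3 fell in Cisplatin against Normal (50%, against 54.5% of all genes), and 1 rose and 3 fell in RP against Cisplatin (28.6%, against 48.8%). Keap1, the adaptor of NRF2, averaged 131.0 ± 21.6 CPM in RP, 230.3 ± 17.1 in Cisplatin and 99.9 ± 11.3 in Normal (1.20 ± 0.14, adjusted p = 1.43e-05), and Ivns1abp averaged 124.0 ± 3.04 CPM in RP, 284.2 ± 27.9 in Cisplatin and 127.9 ± 6.53 in Normal (1.15 ± 0.12, adjusted p = 4.37e-06).

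**Figure D4:**
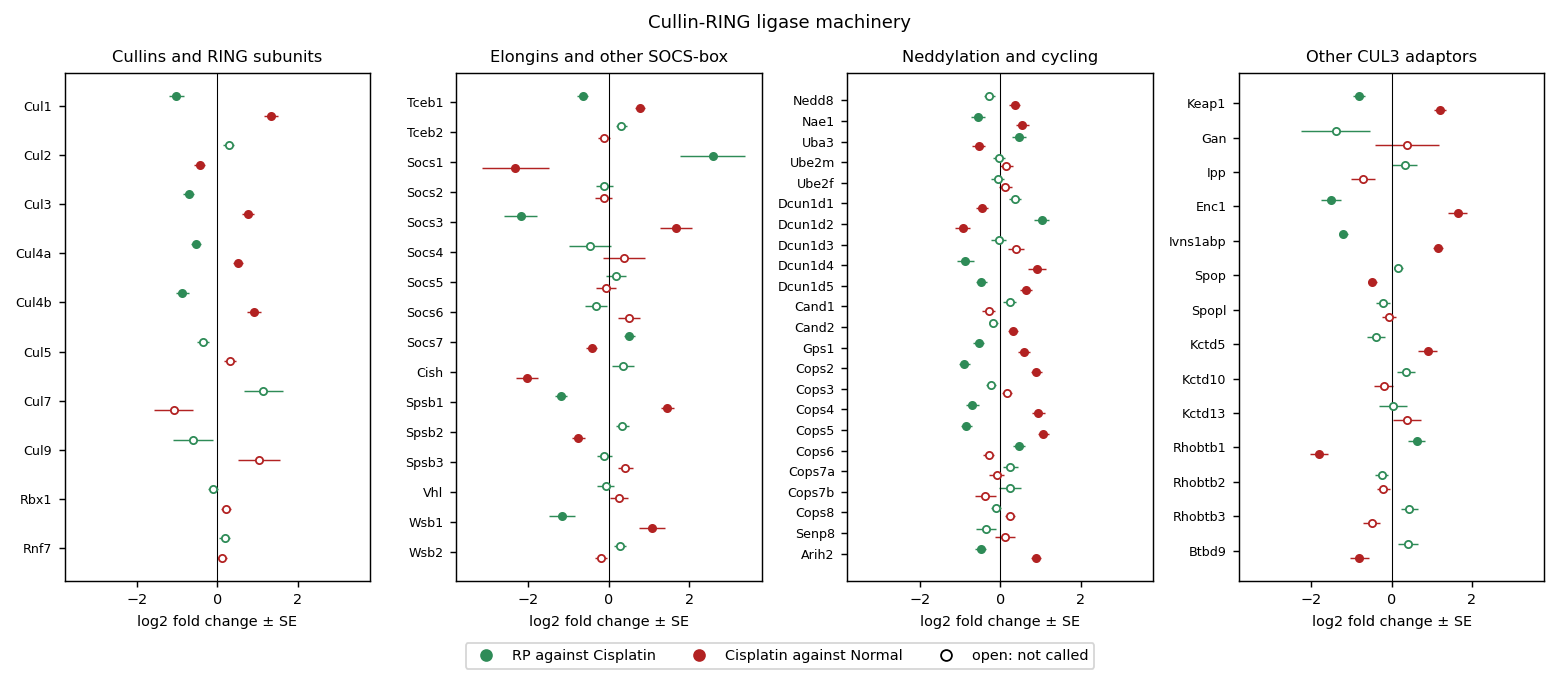
Log2 fold change ± SE (horizontal axis) of each listed gene (vertical axis) in RP against Cisplatin and in Cisplatin against Normal, in 4 panels for cullins and RING subunits, elongins with other SOCS-box genes, neddylation and cycling genes, and other CUL3 adaptors; filled points are called at an adjusted p under 0.05. Cul3 lies at 0.76 in Cisplatin against Normal with a filled point, and Rbx1 and Rnf7 at 0.22 and 0.12 with open ones.

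Between RP and Normal 51 of the 52 tested adaptors were not called. For 33 of these 51 the 95% interval lay inside -1 to 1 on the log2 scale. An interval inside those limits can still hold a change as large as the -0.49 called for Asb10 in Cisplatin against Normal. Asb11 was the single call, a rise, and no adaptor was called lower. By edgeR's unadjusted p under 0.05, 5 adaptors were higher in RP (Asb5, Asb11, Asb12, Asb14 and Klhl8) and 4 were lower (Asb7, Asb15, Klhl9 and Klhl34). At that cut 768 of all 12859 genes were higher and 881 lower. DESeq2 called Asb11 higher and Klhl34 lower, among 106 higher and 116 lower of the same 12859 genes. Whether the adaptors differ from all genes in these counts was not tested. Klhl34 had the largest difference, -1.43 ± 0.36 (95% interval -2.20 to -0.65, adjusted p = 0.112), at means of 4.44 ± 1.46 CPM in RP and 12.0 ± 6.36 CPM in Normal (SD, n = 3 each), and 1 of the Normal libraries, at 19.0 CPM, held much of that mean. In 13 of the 52 genes RP and Normal did not overlap, 25.0% against 19.2% of all genes. No Kbtbd gene was called or had an unadjusted p under 0.05 in this comparison, by edgeR or, for the calls, by DESeq2.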

How the data were processed

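Total RNA of 9 gastrocnemius samples was made into 3′ tag libraries with a Lexogen QuantSeq kit, per the labels' protocols, so that counts do not scale with transcript length. What the authors deposited for each sample is a table of raw, whole-number counts by gene symbol, with 23282 rows. The submitters' processing notes name Bowtie2, edgeR and the mm10 build; no version, counting program, strand setting or annotation is given in the sources used here. The members and all lists were chosen with earlier results of these data known, and no list is independent evidence.

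From the deposited counts, 79 rows sharing 35 symbols were summed, none of them an adaptor, which left 23238 symbols. Libraries of a group differed by more than counting error (chi-square per degree of freedom 11.3 to 28.9). This difference may be technical, so it cannot show whether the libraries come from separate mice. All 9 were kept as samples. The test was edgeR 4.0.16 in R 4.3.3: genes passed filterByExpr by group (12859 did), TMM factors scaled the libraries, and 1 quasi-likelihood fit (glmQLFit) of the 9 libraries, with the group as its term, gave the 3 comparisons by glmQLFTest with Benjamini-Hochberg adjustment over all genes tested, called at an adjusted p under 0.05. The SE is the log2 fold change over the square root of F, and intervals cover 95%. Adaptors with a count under the filter were not tested. Totals of 8196030 to 10678342 counts leave genes of a few CPM with wide error; floors of 3 counts cover counting error only. The scripts were tested on simulated data.

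Alternatives were RLE scaling, library size only, no Rn45s, no filter on low counts, DESeq2 1.42.0, the 2 groups alone, a replicate block and each library left out. Values per library are given for the 6 Klhl, 2 Kbtbd and 6 Asb genes of highest mean CPM, the 4 largest called rises and falls per comparison with a mean of at least 2 CPM, Klhl31, Klhl40, Klhl41 and Kbtbd13, and up to 6 genes called in opposite directions. Values of Klhl6, Klhl8, Klhl13, Klhl30, Klhl34 and Kbtbd3, and means of other adaptors, were added after they were seen. Of the ligase lists, the called genes of smallest p and the core subunits were named. Transcript overlaps come from GENCODE M21 on GRCm38, with BLAST+ 2.17.0 on the last 400 bases of each adaptor transcript (at least 75 aligned bases at 98% identity). Promoters come from RefSeq (GRCm38.p6), of which the 250 bases before the start were searched.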

Additional observations from a re-analysis of the deposited data

How the results depend on the processing

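In Cisplatin against Normal the numbers of adaptors called were 10 higher and 15 lower, and over the alternatives they ran from 10 to 13 higher and 11 to 16 lower. In RP against Cisplatin they were 13 higher and 12 lower, with 9 to 14 higher and 9 to 12 lower. Of the 25 called adaptors in each, 19 and 18 were called under every alternative run, and no call changed direction. In RP against Normal the single higher call became 2 with no filter on low counts (Asb11 and Asb5) and 0 to 1 when 1 library was left out. The 0 lower calls became 1 by DESeq2 (Klhl34), 2 with no filter (Asb15 and Klhl34) and 0 to 1 when 1 library was left out; the cause was not tested. With the replicate numbers as a block, 10 adaptors were higher and 16 lower in Cisplatin against Normal, 13 and 11 in RP against Cisplatin and 1 and 0 in RP against Normal. Same-numbered samples deviated from their group means with correlations of -0.124 to 0.158, against -0.19 to 0.115 for samples of different numbers. With means of only 3 libraries, these correlations cannot decide whether the numbers pair the samples. With library size as the only scaling the median over all genes moved to 0.21, against 0.07, in RP against Cisplatin. Genes under a few CPM, and differences between RP and Normal, are limited by depth and by 3 libraries a group.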
